A study of Mus musculus with 24 samples.

Results

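Out-of-frame immunoglobulin rearrangements are joins of V and J segments (with a D segment in the heavy chain) whose junction leaves V and J in different reading frames, so that no complete antibody chain can be read from them. They were taken from the receptor tables of 8 BCR sequencing libraries of mouse spleen as the rows whose CDR3 is listed as out of frame and whose V and J belong to the same chain, heavy (IGH), kappa (IGK) or lambda (IGL). A row is 1 assembled CDR3 with its V, D, J and constant region calls and its read count. The rule kept 42503 rows of 1154635, and 619 further out-of-frame rows had no V or J call of the same chain. The comparison was made with 1020551 in-frame rows without a stop codon and with 88245 in-frame rows with a stop codon from the same libraries. The latter class also takes in any row with an unresolved codon (a question mark in the CDR3), which was not counted apart.

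Antibody genes are assembled in precursor B cells by the RAG recombinase, which cuts at V, D and J segments, and by end-joining factors that trim and add bases at random before joining them. Most random joins fall out of frame. A cell whose first join fails can try the other allele, so mature B cells often carry an out-of-frame copy beside the productive one, and its transcripts are removed in large part by nonsense-mediated decay. Since no protein is made from it, the V and J segments of an out-of-frame copy are not selected for the antibody they encode.

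All libraries came from spleen (cell type given as splenocytes) of 8-week-old BALB/c mice. CT-26 is a colon carcinoma cell line of that strain, given by injection on the right side of the mouse. Of the 8 libraries, 4 have titles with "control" and 4 have titles with "CT-26", but the treatment labels run the other way: a treatment of injected CT-26 cells stands on the libraries titled control, and a healthy control treatment on the others. The sets are therefore called by their titles, and no difference below can be read as tumour-bearing against healthy or the reverse. Nothing in the labels says that the 4 libraries of a set are 4 mice, so p-values measure the spread between libraries, which may be technical. The kit named for the receptor libraries is one for TCR alpha and beta chains. The 8 TCR tables of the series list 0 out-of-frame rows among 322603.

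The BCR libraries held 731857 to 909745 reads in 126225 to 158314 rows. The 4 titled control libraries shared heavy-chain rearrangements far more than the others did. Each pair of them had 6320 to 7210 identical in-frame IGH rearrangements (same V, J and CDR3 nucleotides), which held 45.2% to 52.9% of the in-frame IGH reads of a library. Pairs of titled CT-26 libraries had 615 to 983 in common, and pairs across the sets 439 to 739. They were counted as 4 libraries, as labelled. Read counts of rearrangements of all chains differed between 2 titled control libraries by a chi-square per degree of freedom of 19.4 to 33.9. Between titled CT-26 libraries it was 77.6 to 83.0. Rearrangements found in only 1 of the 2 libraries were included, and those with few reads in sum were left out. That measure covers counting error of PCR reads only and does not show separate sources. If they had to count as 1 sample, no test between the sets could be made. Whether they share cells, animals or handling was not tested, and the shares of rows and reads out of frame are also given over rearrangements listed in 1 library only. Of the contrasts within a library, those of reads per row, CDR3 length and V and J usage are also given for the titled CT-26 libraries alone, where 4 libraries allow no exact p under 0.125.

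The sequences that follow are among the out-of-frame rearrangements found in most libraries of each chain, shown beside the in-frame rearrangement of the same V and J that lies 1 inserted or deleted base away. Lower case marks the bases that match the germline end of the V segment (GENCODE M21 models on GRCm38, from C57BL/6J, a strain other than that of these mice), and capitals mark the bases after that match, up to the end of the CDR3. In the lambda chain the germline V end from the conserved cysteine on and the starts of 2 J segments were as follows.
IGLV1 germline end: tgtgctctatggtacagcaaccatttc
IGLJ1 germline start: CTGGGTGTTC
IGLJ3 germline start: GTTTATTTTC
IGLV1-IGLJ1, out of frame: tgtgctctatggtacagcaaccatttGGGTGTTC
IGLV1-IGLJ1, in frame: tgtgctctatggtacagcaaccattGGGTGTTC
IGLV1-IGLJ3, out of frame: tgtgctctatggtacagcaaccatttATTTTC
IGLV1-IGLJ3, in frame: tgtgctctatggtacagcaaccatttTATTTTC
The out-of-frame IGLV1-IGLJ1 sequence of 34 bases was found in all 8 libraries. That sequence had 4982, 4514, 3357 and 3538 reads in titled control libraries 1 to 4 and 1428, 2148, 1798 and 1649 in titled CT-26 libraries 1 to 4. The sets did not overlap, with all titled control libraries higher. Its in-frame neighbour of 33 bases had 36908, 35821, 26874 and 29706 reads and 24183, 20136, 15752 and 22327 reads in the same order. The out-of-frame IGLV1-IGLJ3 sequence of 32 bases had 1418, 1494, 993 and 1118 reads in titled control libraries 1 to 4 against 914, 759, 718 and 677 in titled CT-26 libraries 1 to 4. Its in-frame neighbour went the other way, with 2859 to 4004 reads per titled control library and 5420 to 7251 per titled CT-26 library, so that neither sequence overlapped between the sets.

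Kappa and heavy chains had shared out-of-frame rearrangements with far fewer reads, shown here with their in-frame neighbours where there was one.
IGKV8-16-IGKJ1, out of frame: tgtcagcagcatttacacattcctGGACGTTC
IGKV8-16-IGKJ1, in frame: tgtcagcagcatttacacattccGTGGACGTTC
IGKV8-16-IGKJ5, out of frame: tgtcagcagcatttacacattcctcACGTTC
IGKV8-16-IGKJ5, in frame: tgtcagcagcatttacacattcTCACGTTC
IGKV5-43-IGKJ5, out of frame: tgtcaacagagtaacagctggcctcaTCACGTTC
IGKV5-43-IGKJ5, in frame: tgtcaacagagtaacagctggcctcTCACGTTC
IGHV4-2-IGHJ3, out of frame: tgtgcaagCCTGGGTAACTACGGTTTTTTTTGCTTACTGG
IGHV4-2-IGHJ3, in frame: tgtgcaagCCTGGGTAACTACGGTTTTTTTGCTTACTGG
IGHV5-2-IGHJ2, out of frame: tgtgcaagacCCCTCTTGACTACTGG
The IGKV8-16-IGKJ1 sequence was found in all 8 libraries with 499 reads in sum against 2039 of its in-frame neighbour. The IGKV8-16-IGKJ5 sequence was the one of these with more reads than its in-frame neighbour, 346 against 180. It had 88, 54, 46 and 64 reads in titled control libraries 1 to 4 and 32, 35, 18 and 9 in titled CT-26 libraries 1 to 4. These are raw reads, and the IGK chain held 457745 to 583002 reads per titled control library against 304506 to 380974 per titled CT-26 library. Relative to those totals the sets overlapped, with titled control library 3 below titled CT-26 libraries 1 and 2. The IGKV5-43-IGKJ5 sequence was also in all 8, with 333 reads against 3270 of its in-frame neighbour. The IGHV4-2-IGHJ3 sequence of 40 bases was found in the 4 titled control libraries with 44, 41, 19 and 36 reads and in no titled CT-26 library. Its in-frame neighbour of 39 bases had 1741, 1301, 808 and 1632 reads in those libraries and none in the other set. The IGHV5-2-IGHJ2 sequence of 26 bases had 7, 7, 14 and 2 reads in the titled control libraries, and no in-frame row lay 1 base from it.

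Out-of-frame rows were a smaller share of all rows in the titled CT-26 set in all 3 chains. In IGH they made up 2.08%, 1.94%, 2.5% and 2.0% of rows in titled control libraries 1 to 4 and 1.03%, 0.874%, 0.913% and 0.892% in titled CT-26 libraries 1 to 4. In IGK the shares were 5.23%, 5.10%, 5.94% and 5.15% against 4.04%, 2.83%, 2.42% and 2.17%. In IGL they were 21.2%, 21.2%, 21.4% and 20.9% against 12.9%, 12.6%, 11.7% and 10.6%. No library of one set reached the range of the other in any chain, and lambda had the highest out-of-frame share in every library. The difference of means (titled CT-26 minus titled control) was -1.20 percentage points in IGH, -2.49 in IGK and -9.22 in IGL, each with an exact permutation p of 0.0286, the smallest that 4 against 4 libraries allow, and an adjusted p of 0.0343 over 6 tests of rows and reads.

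**Figure D1:**
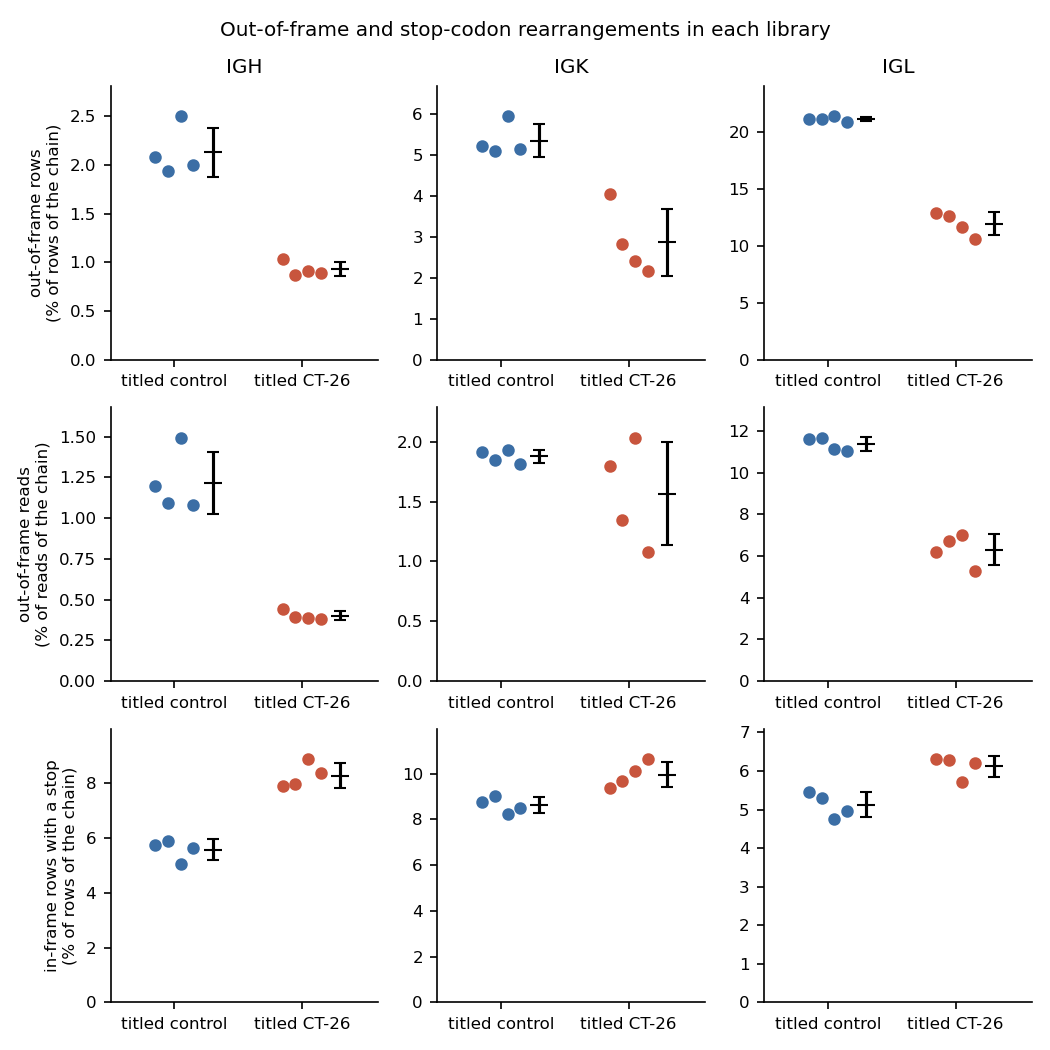
Each point is 1 library, with titled control libraries in blue and titled CT-26 libraries in red, and bars show the mean ± SD of 4 libraries; columns are the chains and the y axes give percent of rows or reads of the chain, from 0. Out-of-frame rows lie lower in the titled CT-26 set in every chain, rows with a stop codon lie higher, and only the IGK share of reads overlaps between the sets.

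By reads the out-of-frame share was lower in the titled CT-26 set in IGH and IGL. It was 1.20%, 1.09%, 1.49% and 1.08% of IGH reads against 0.442%, 0.391%, 0.3898% and 0.383%, and 11.6%, 11.7%, 11.1% and 11.1% of IGL reads against 6.22%, 6.72%, 6.999% and 5.29% (exact permutation test, adjusted p = 0.0343 each). The IGK reads overlapped, with 1.92%, 1.85%, 1.93% and 1.81% against 1.80%, 1.35%, 2.03% and 1.08%, and the difference of -0.31 points did not pass the test (exact permutation p = 0.286). One row decided that outcome: an IGKV4-91 rearrangement in titled CT-26 library 3 with 2989 reads. Without it that library had 1.15% and the difference was -0.53 points with an adjusted p of 0.0286 by the same exact test. This alternative was chosen after the data were seen. Without the rows 1 base from an in-frame row, defined further on, the IGK difference turned to 0.07 points (adjusted p = 0.8, exact permutation test).

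The IGKV4-91 row is printed because of that weight. Its CDR3 runs for 130 bases and ends in IGKJ5, and it holds at least 20 bases of a second, upstream J segment, IGKJ2 (capitals again mark what follows the match to the V end).
IGKV4-91-IGKJ5, out of frame: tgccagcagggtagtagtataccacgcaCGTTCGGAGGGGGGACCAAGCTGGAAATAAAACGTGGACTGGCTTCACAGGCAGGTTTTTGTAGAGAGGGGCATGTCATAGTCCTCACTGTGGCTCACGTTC
IGKV8-30-IGKJ5, out of frame: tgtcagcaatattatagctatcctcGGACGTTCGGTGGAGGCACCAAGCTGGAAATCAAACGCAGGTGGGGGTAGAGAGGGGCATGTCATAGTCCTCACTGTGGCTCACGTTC
In all, 3 out-of-frame IGK rows held such a stretch of a second J segment, with 3132 reads in sum and CDR3 lengths from 113 to 130 bases. All 3 were called with IGKJ5, and the inner segment was IGKJ1 in 2 of them and IGKJ2 in the other. The IGKV8-30 row had 127 reads in titled control library 2, which also held the remaining row, again with IGKV8-30.

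Rows with a stop codon in frame, the other class of rearrangements that cannot encode a chain, moved in the opposite direction. They rose from 5.57% ± 0.375 (SD, n = 4) of IGH rows in the titled control set to 8.28% ± 0.449 (SD, n = 4) in the titled CT-26 set. In IGK the shares were 8.63% ± 0.349 and 9.97% ± 0.543, and in IGL 5.12% ± 0.325 and 6.13% ± 0.273. The sets did not overlap in any chain (exact permutation test, adjusted p = 0.0286 each).

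Out-of-frame rows carried fewer reads per row than in-frame rows of the same chain and library. The log2 ratio of mean reads per row was -1.09 ± 0.232 (SD, n = 8) in IGH, -1.34 ± 0.454 in IGK and -1.13 ± 0.108 in IGL, negative in 8 of 8 libraries of each chain (exact sign flips, p = 0.00781, the smallest that 8 libraries allow). In titled CT-26 libraries alone the ratios were -1.30, -1.01 and -1.11. The mean was 1.43 ± 0.0527 reads per out-of-frame IGH row in the titled control set against 2.62 ± 0.155 per in-frame row. Most rows of either class had a single read, 77.6% ± 1.13 of out-of-frame and 75.2% ± 0.955 of in-frame IGH rows in that set. In the light chains single-read rows were the fewer among out-of-frame rows, although the mean reads per row were lower. The shares in the titled control set were 63.9% against 74.0% of in-frame rows in IGK and 71.9% against 74.5% in IGL. In the titled CT-26 set they were 70.5% against 75.9% and 73.3% against 76.1%, and in IGH 82.1% against 76.1%.

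Part of the out-of-frame rows lay 1 inserted or deleted base from an in-frame row of the same V, J and library that had at least as many reads. In IGH this held for 5.40% ± 0.796 (SD, n = 4) of out-of-frame rows in the titled control set and 13.8% ± 1.70 in the titled CT-26 set (exact permutation test, adjusted p = 0.0429). In IGK it held for 42.7% ± 3.18 and 32.2% ± 2.77 (adjusted p = 0.0429, the same exact test), and in IGL for 51.0% ± 1.46 and 51.0% ± 2.24. The share of rows out of frame remained lower in the titled CT-26 set when all such rows were left out. The differences were then -1.22 points in IGH, -1.17 in IGK and -5.39 in IGL, each with an adjusted p of 0.0343 by the exact permutation test. The difference in IGL reads shrank to -1.27 points and still passed (adjusted p = 0.0343, the same exact test). Over rearrangements listed in 1 library only, the differences in rows were -1.65, -2.93 and -10.96 points, with the same adjusted p. In reads they were -2.04 points in IGH and -10.38 in IGL with that adjusted p, and -1.71 in IGK (adjusted p = 0.314, exact permutation test). That subset is not neutral in IGH or IGK, nor by reads in IGL. Pairs of titled control libraries shared 9.32% to 10.8% of in-frame but 0.801% to 1.37% of out-of-frame IGH rearrangements. Leaving the shared ones out by itself raises the out-of-frame share in the titled control set.

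Rows that lie 1 substitution from a row of the same class with more reads were fewer among out-of-frame than among in-frame rearrangements of the heavy and kappa chains. The shares were 9.81% ± 3.08 (SD, n = 8) against 33.0% ± 9.89 in IGH and 31.9% ± 1.16 against 58.2% ± 1.47 in IGK, lower in 8 of 8 libraries (exact sign flips, adjusted p = 0.0117). The IGH shares differed by set, with 5.67% to 9.44% of out-of-frame and 20.2% to 26.0% of in-frame rearrangements in the titled control libraries, and 9.09% to 14.2% and 40.3% to 43.0% in the titled CT-26 libraries. In IGL they were 65.5% ± 1.96 and 67.0% ± 1.10, a difference that did not pass the test (exact p = 0.0625, lower in 5 of 8). In-frame rows are more numerous and deeper, which was not matched here.

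A light-chain junction can be made of germline bases alone, when the V end and the J start account for the whole CDR3. In IGK that held for 25.8% ± 4.48 (SD, n = 8) of out-of-frame rows and 3.77% ± 0.376 of in-frame rows, higher in 8 of 8 libraries (exact sign flips, adjusted p = 0.00781). Weighted by reads the order turned, with 56.3% ± 9.48 of out-of-frame and 68.6% ± 2.07 of in-frame IGK reads, lower in 8 of 8 libraries (adjusted p = 0.00781 by the same exact test). In IGL the shares of rows were 5.95% ± 0.494 and 0.603% ± 0.166, and those of reads 71.5% ± 1.56 and 73.7% ± 1.17. The germline sequence is that of another strain, and a single read with 1 changed base fails the match.

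The CDR3 of out-of-frame rows was longer than that of in-frame rows in the heavy chain and slightly shorter in the light chains. The mean difference was 1.57 ± 0.710 bases (SD, n = 8) in IGH, positive in 8 of 8 libraries, and -0.42 ± 0.0574 bases in IGK, negative in 8 of 8 (exact sign flips, adjusted p = 0.0117 each). By set the IGH difference was 1.05 ± 0.511 bases (titled control) and 2.10 ± 0.412 (titled CT-26), and over rows of at least 2 reads its call was lost (1.26 bases, exact adjusted p = 0.0547). In IGL it was -0.21 ± 0.202 bases, negative in 7 of 8 libraries (adjusted p = 0.0391 by the same exact test), and in the titled CT-26 libraries alone it was -0.05. The IGL call was lost without any one of titled control libraries 1 to 4 or titled CT-26 library 2 (-0.17 to -0.20 bases, exact adjusted p = 0.0781). Between the sets the mean lengths of out-of-frame rows were 41.4 ± 0.601 and 42.8 ± 0.995 bases in IGH, 32.3 ± 0.0385 and 32.2 ± 0.0248 in IGK, and 32.9 ± 0.0566 and 33.1 ± 0.161 in IGL (titled control first, SD, n = 4). None of the 3 differences passed the exact permutation test (adjusted p = 0.129, 0.0857 and 0.286). In IGK the libraries did not overlap between sets, at an unadjusted exact p of 0.0286.

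**Figure D2:**
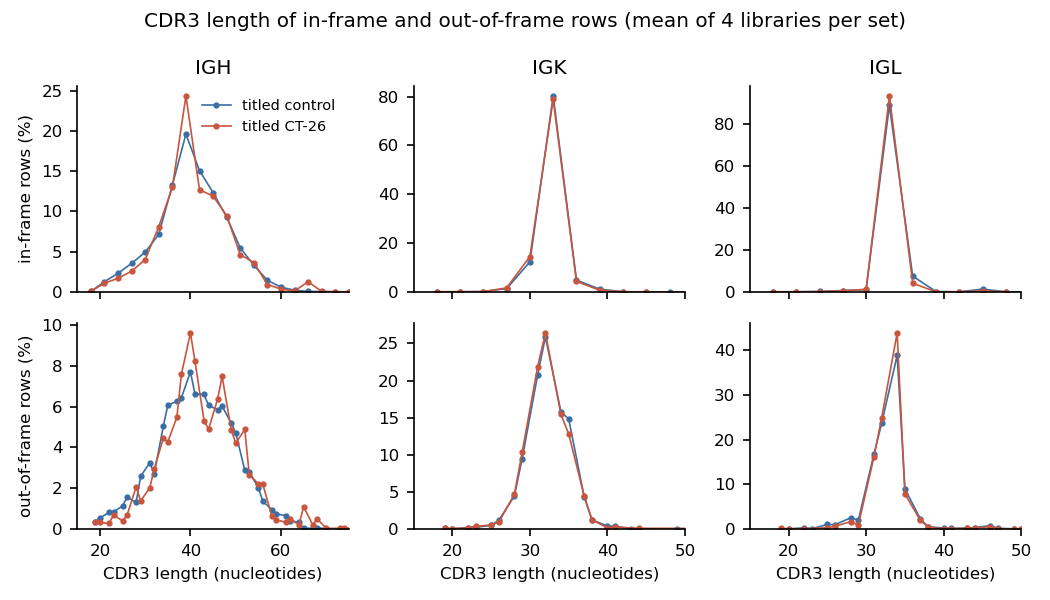
The x axis is the CDR3 length in nucleotides and the y axis the percent of in-frame (upper row) or out-of-frame rows (lower row), as means of 4 libraries per set, with titled control in blue and titled CT-26 in red. In-frame lengths are all multiples of 3, and the out-of-frame rows fall at the lengths between them; a few longer rows lie beyond the axes.

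Out-of-frame lengths were spread over both frames. A length of 1 base above a multiple of 3 was found in 50.4% ± 3.61 (SD, n = 4) of IGH rows in the titled control set and 49.9% ± 3.78 in the titled CT-26 set, in 46.6% ± 1.08 and 47.4% ± 2.69 of IGK rows, and in 63.0% ± 1.70 and 64.8% ± 4.27 of IGL rows. No difference between the sets passed the exact permutation test (adjusted p = 0.8 in each chain). In IGL the length of 34 bases alone, 1 above the in-frame mode, made up 38.8% of out-of-frame rows in the titled control set and 43.8% in the titled CT-26 set.

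V segments of the heavy chain differed between out-of-frame and in-frame rows of the same library. Of 111 segments with a mean of at least 10 rows, 28 (25.2%) passed edgeR's quasi-likelihood test at an adjusted p under 0.05, 12 (10.8%) higher and 16 (14.4%) lower among out-of-frame rows, and 39 had an unadjusted p under 0.05. IGHV5-2, a segment at the D-proximal end of the V cluster known as VH81X for its frequent rearrangement in precursor B cells, was at the head of the list (chr12:113542124-113542610, minus strand, GRCm39). It made up 9.16%, 10.8%, 12.8% and 9.16% of out-of-frame IGH rows in titled control libraries 1 to 4 and 7.44%, 3.24%, 1.42% and 3.97% in titled CT-26 libraries 1 to 4. Of in-frame rows it made up 0.703%, 0.698%, 0.703% and 0.772% and 0.494%, 0.663%, 0.844% and 1.17%. The out-of-frame share was the higher in each library, with a log2 difference of 3.195 ± 0.232 (SE, edgeR adjusted p = 2.17e-16). Of the out-of-frame plus in-frame rows without stop codon with IGHV5-2, 15.98% were out of frame.

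The neighbouring IGHV5-1, a pseudogene in GENCODE M21 (chr12:113536547-113537022, minus strand, GRCm39), had 87 out-of-frame rows. It took 0.853% ± 0.381 (SD, n = 8) of out-of-frame and 0.0312% ± 0.00763 of in-frame rows, a log2 difference of 4.72 ± 0.355 (SE, edgeR adjusted p = 4.42e-16), and was higher in 8 of 8 libraries. IGHV1-11 (log2 difference 3.97) and IGHV8-2 (3.56) rested on 39 and 46 out-of-frame rows and were higher in 7 of 8 libraries (edgeR adjusted p = 5.62e-10 and 9.91e-10). IGHV5-2 and IGHV5-1 passed the test in the titled CT-26 libraries alone, at log2 differences of 2.27 and 4.79 (edgeR adjusted p = 1.13e-08 and 9.52e-08), while IGHV8-2 did not (2.65, edgeR adjusted p = 0.0513) and IGHV1-11 had too few rows to be tested. In those 4 libraries 3 segments passed. Without titled control library 2, 18 segments passed.

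**Figure D3:**
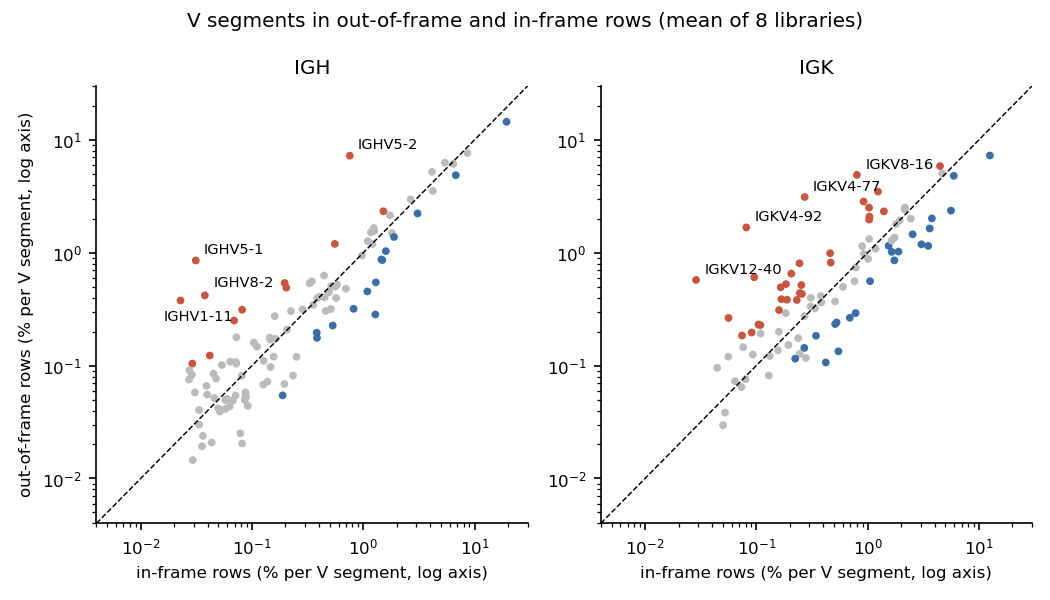
Each point is a V segment, placed by its mean percent of in-frame rows (x) and of out-of-frame rows (y) over 8 libraries, on log axes with the line of equality dashed. Red points were higher and blue points lower among out-of-frame rows (edgeR, adjusted p under 0.05), grey points did not pass, and 2 tested heavy-chain segments with no out-of-frame row are not drawn; IGHV5-2 lies at 7.24% of out-of-frame against 0.756% of in-frame rows.

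In the kappa chain 52 of 94 V segments (55.3%) differed between the classes, 30 (31.9%) higher and 22 (23.4%) lower among out-of-frame rows. IGKV8-16 (chr6:70363656-70364236, minus strand, GRCm39) made up 4.77%, 5.07%, 4.65% and 5.21% of out-of-frame rows in titled control libraries 1 to 4 and 4.55%, 5.19%, 5.05% and 4.67% in titled CT-26 libraries 1 to 4. Its in-frame share was 0.801% ± 0.119 (SD, n = 8). The share among out-of-frame rows thus lay between 4.55% and 5.21% in all 8 libraries, with a log2 difference from in-frame rows of 2.62 ± 0.123 (SE, edgeR adjusted p = 1.75e-13). IGKV4-92 (chr6:68732022-68732577, minus strand) took 1.68% ± 0.364 of out-of-frame and 0.0813% ± 0.0213 of in-frame rows (log2 difference 4.34 ± 0.209 SE). Of its out-of-frame plus in-frame rows without stop codon, 49.8% were out of frame.

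The other leading kappa segments, IGKV4-77 and IGKV12-40, are pseudogenes in GENCODE M21. IGKV4-77 took 3.12% ± 1.31 (SD, n = 8) of out-of-frame and 0.272% ± 0.108 of in-frame rows, and IGKV12-40 0.574% ± 0.107 and 0.0287% ± 0.0131, with log2 differences of 3.497 and 4.26 (edgeR adjusted p = 1.62e-11 and 1.77e-09). Both were higher in 8 of 8 libraries. Segments listed as pseudogenes in that reference made up 5.46% ± 1.41 of out-of-frame IGK rows and 0.924% ± 0.174 of in-frame rows, higher in 8 of 8 libraries (exact sign flips, adjusted p = 0.0156). Of 6 such segments tested, 5 were among the 30 that were higher. In the heavy chain the shares of pseudogene segments were 6.37% ± 1.28 and 6.13% ± 2.04 (exact p = 0.727). The reference is of another strain, and a pseudogene there may be intact in BALB/c mice. In the titled CT-26 libraries alone 23 of 91 kappa segments passed, among them IGKV8-16, IGKV4-92 and IGKV4-77.

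The lambda chain of the mouse has few V segments, and all 3 tested (100% called) differed between the classes. IGLV1 (chr16:18903767-18904250, minus strand, GRCm39) took 75.9% ± 2.10 (SD, n = 8) of out-of-frame and 59.1% ± 3.37 of in-frame rows, a log2 difference of 0.36 ± 0.0481 (SE, edgeR adjusted p = 4.32e-07). IGLV2 took 22.4% ± 1.82 and 40.0% ± 3.76, a log2 difference of -0.82 ± 0.0659 (edgeR adjusted p = 1.97e-10). IGLV3, the rarest, took 1.67% ± 0.535 and 0.951% ± 0.542, a log2 difference of 0.80 ± 0.178 (edgeR adjusted p = 0.000203). All 3 shares sum to the whole, so they do not vary independently, and IGLV1 and IGLV3 were higher and IGLV2 lower in 8 of 8 libraries. All 3 passed in the titled CT-26 libraries alone, at log2 differences of 0.44 for IGLV1, -0.97 for IGLV2 and 1.37 for IGLV3 (edgeR adjusted p = 0.00107, 1.26e-05 and 0.000172).

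Between the title sets, 6 of 25 V segments tested (24%) differed among out-of-frame IGH rows by edgeR, 2 higher and 4 lower in the titled CT-26 set. IGHV4-1 rose from 8.88% ± 2.23 (SD, n = 4) to 20.03% ± 1.84 of out-of-frame rows (log2 1.17 ± 0.274 SE, edgeR adjusted p = 0.000822), and among in-frame rows it rose as well, from 13.8% to 25.0% (log2 0.86, adjusted p = 0.0124). IGHV5-2 fell from 10.5% ± 1.72 to 4.02% ± 2.52 of out-of-frame rows (log2 -1.36 ± 0.340 SE, edgeR adjusted p = 0.00121). That call was lost over rows of at least 2 reads (-0.61, edgeR adjusted p = 0.223). Its in-frame share was 0.719% and 0.794% (log2 0.14, adjusted p = 0.718). IGHV6-7 (log2 -1.74) and IGHV6-6 (-1.56) were lower too (edgeR adjusted p = 0.00309 and 0.00844), and the IGHV6-6 call was lost without titled CT-26 library 2 (-1.32, adjusted p = 0.0623) and, as for IGHV6-7, with no filter on rows (adjusted p = 0.179 and 0.0667). Of the 6, 5 had the same sign among in-frame rows, and 3 also passed there with that sign. Among in-frame rows 30 of 128 segments (23.4%) passed. Agreement of signs over all segments tested was not counted. The count of 6 out-of-frame segments fell to 3 without titled control library 3 or without titled CT-26 library 2.

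Among out-of-frame IGK rows 10 of 55 V segments (18.2%) differed between the sets by edgeR, 6 higher and 4 lower in the titled CT-26 set. IGKV8-21 made up 3.70%, 4.12%, 2.31% and 4.02% in titled control libraries 1 to 4 and 6.19%, 7.91%, 9.91% and 8.70% in titled CT-26 libraries 1 to 4 (log2 1.20 ± 0.199 SE, edgeR adjusted p = 0.00159). It was also higher among in-frame rows (log2 0.69, adjusted p = 0.00874). IGKV3-5 rose from 1.35% ± 0.371 to 3.297% ± 0.680 (log2 1.296, edgeR adjusted p = 0.00336), with in-frame shares of 1.34% and 1.46%. IGKV6-23 (log2 -1.45) and IGKV6-15 (-0.68) were lower in both classes (out of frame, edgeR adjusted p = 0.00882 and 0.0097), and the IGKV6-15 call was lost without rows 1 base from an in-frame row (-0.39, adjusted p = 0.219). Of the 10, 8 had the same sign among in-frame rows, and 6 also passed there with that sign. Among in-frame rows 21 of 102 segments (20.6%) passed. Here too, agreement of signs over all segments was not counted. In IGL 0 of 3 segments (0%) passed with edgeR and 1 had an unadjusted p under 0.05. DESeq2 called 2.

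Few segments passed a test of whether the classes changed differently between the sets. Segments needed a mean of at least 10 rows over the in-frame and out-of-frame columns together. Only 25 heavy-chain and 55 kappa segments had that mean among out-of-frame rows alone, and 2 tested heavy-chain segments had no out-of-frame row. The low counts therefore do not show equal change in the others. Unadjusted p was under 0.05 for 11 heavy-chain and 13 kappa segments (edgeR). The interaction of class and set passed for 1 of 111 heavy-chain segments (0.901%), IGHV5-2, whose log2 difference between out-of-frame and in-frame rows changed by -1.4997 ± 0.278 (SE) from the titled control to the titled CT-26 set (edgeR adjusted p = 1.08e-05). That call was not made by DESeq2 (log2 -1.72, adjusted p = 0.124) or over rows of at least 2 reads (-0.96, edgeR adjusted p = 0.508). In IGK 4 of 94 segments (4.26%) passed, namely IGKV3-5 (1.18), IGKV3-10 (1.20), IGKV3-4 (0.92) and IGKV4-86 (-1.49), with an edgeR adjusted p of 0.0196 each. None of the 4 passed without titled control library 1, 3 or 4 or titled CT-26 library 1. In IGL 2 of 3 (66.7%) passed, IGLV3 (0.83, edgeR adjusted p = 0.00331) and IGLV2 (-0.28, adjusted p = 0.0236). The IGLV2 call was lost without titled control library 1 or 4 or without titled CT-26 library 2, 3 or 4 (-0.19 to -0.27, adjusted p = 0.0585 to 0.0995).

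Of 11 J segments tested, 7 (63.6%) passed the exact sign-flip test adjusted within chain. In IGH the share of IGHJ1 was 8.48% ± 1.63 of out-of-frame and 10.96% ± 1.12 of in-frame rows in the titled control set and 9.24% ± 0.981 and 12.7% ± 2.54 in the titled CT-26 set (SD, n = 4). It was lower by 2.99 points over all libraries, in 8 of 8 (exact adjusted p = 0.0313). IGHJ2, IGHJ3 and IGHJ4 did not pass (differences of 0.155, 1.503 and 1.33 points). IGHJ4 took 28.8% ± 2.33 of out-of-frame and 30.1% ± 2.18 of in-frame rows in the titled control set, against 33.4% ± 4.09 and 29.4% ± 3.25 in the titled CT-26 set. In IGK the share of IGKJ2 fell by 5.87 points from in-frame to out-of-frame rows, in 8 of 8 libraries, while IGKJ4 was higher by 3.11 and IGKJ5, the most distal J segment, by 3.98 points, each in 7 of 8 (exact adjusted p = 0.0313 each). IGKJ5 took 32.1% ± 1.48 of out-of-frame and 26.1% ± 0.313 of in-frame rows in the titled control set (SD, n = 4), and 29.6% ± 2.06 and 27.7% ± 1.06 in the titled CT-26 set. IGKJ1 did not pass (-1.21 points, exact p = 0.234), with 24.7% ± 0.949 and 27.7% ± 0.682, and 28.0% ± 2.33 and 27.4% ± 1.55, in the same order. In the titled CT-26 libraries alone the differences were -3.50 points for IGHJ1, -5.33 for IGKJ2, 2.76 for IGKJ4 and 1.95 for IGKJ5.

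**Figure D4:**
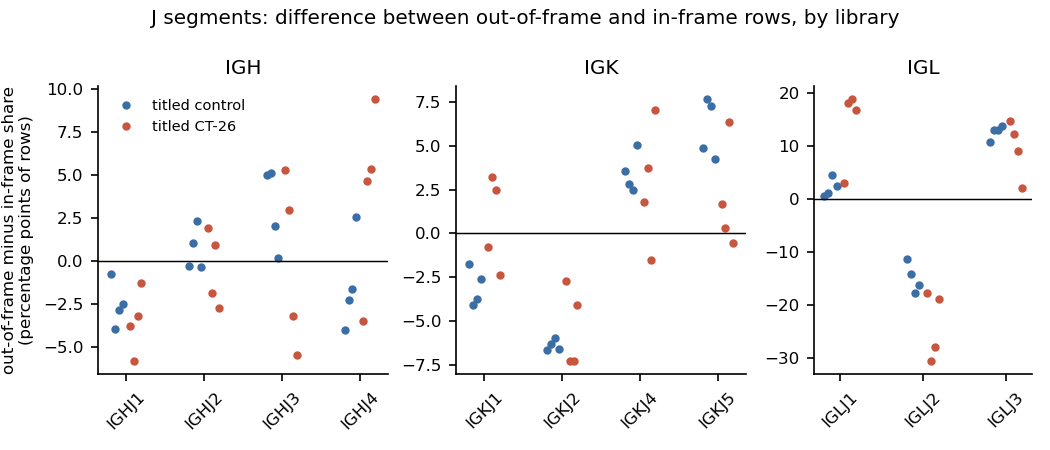
Each point is 1 library, with titled control in blue and titled CT-26 in red, and the y axis gives the share of a J segment among out-of-frame rows minus its share among in-frame rows, in percentage points. IGKJ2 and IGLJ2 lie below 0 in all 8 libraries and IGLJ3 lies above 0 in all 8.

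The lambda J segments differed most. IGLJ2 took 17.0% ± 1.51 (SD, n = 4) of out-of-frame and 31.8% ± 1.70 of in-frame rows in the titled control set and 15.9% ± 3.71 and 39.7% ± 3.56 in the titled CT-26 set. IGLJ3 took 21.9% ± 1.70 and 9.22% ± 0.784, and 24.7% ± 2.09 and 15.1% ± 3.92. IGLJ1 took 61.1% ± 1.15 and 58.8% ± 2.20, and 59.3% ± 5.27 and 45.1% ± 3.30. Over 8 libraries IGLJ2 was lower by 19.3 points and IGLJ1 and IGLJ3 were higher by 8.26 and 11.1 points, each in 8 of 8 (exact adjusted p = 0.00781). In the titled CT-26 libraries alone the differences were -23.8 points for IGLJ2, 14.3 for IGLJ1 and 9.55 for IGLJ3. Without any one of titled control libraries 1 to 4 or titled CT-26 library 1, 3 J segments passed, all of the lambda chain, and IGHJ1 did not pass without any one library (-3.32 to -2.59 points, adjusted p = 0.0625 by the exact test). With 1 library left out, that is the lowest adjusted p for a segment alone at the smallest exact p among 4. IGHJ1 could therefore not pass. The share of IGKJ5 did not pass over rows of at least 2 reads (1.90 points, exact adjusted p = 0.292), nor that of IGLJ1 without rows 1 base from an in-frame row (6.83 points, exact adjusted p = 0.18). Between the sets 0 of 11 J segments (0%) passed among out-of-frame rows by the exact permutation test, and 1 had an unadjusted p under 0.05. That was IGKJ1 (exact p = 0.0286, adjusted p = 0.314), where the libraries did not overlap between sets. Its p is the smallest that 4 against 4 libraries allow, and 1 segment alone at it cannot pass over 11. The count of 0 therefore does not show equal J usage.

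The share of lambda rows out of frame was also taken for each V-J pair. Here it is a share of out-of-frame plus in-frame rows without stop codon of the pair. IGLV1-IGLJ1 had 23.6%, 24.4%, 24.5% and 23.1% in titled control libraries 1 to 4 and 14.4%, 18.1%, 16.1% and 15.8% in titled CT-26 libraries 1 to 4. IGLV1-IGLJ3 had 40.6%, 42.7%, 37.4% and 41.7% against 26.7%, 25.8%, 20.8% and 12.5%. IGLV2-IGLJ2 had 13.0% ± 2.04 (SD, n = 4) and 5.46% ± 1.71, and IGLV2-IGLJ3, with 254 out-of-frame rows in all, 39.8% ± 14.2 and 8.96% ± 5.41. In these 4 pairs the sets did not overlap, with an exact permutation p of 0.0286 and an adjusted p of 0.05, which is at the threshold and not under it. IGLV3-IGLJ2 had 29.1% ± 1.83 and 28.4% ± 3.11 (exact p = 0.743), and IGLV2-IGLJ1 17.5% ± 3.55 and 15.9% ± 5.06 (exact p = 0.6). None of the 7 pairs tested passed after adjustment.

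**Figure D5:**
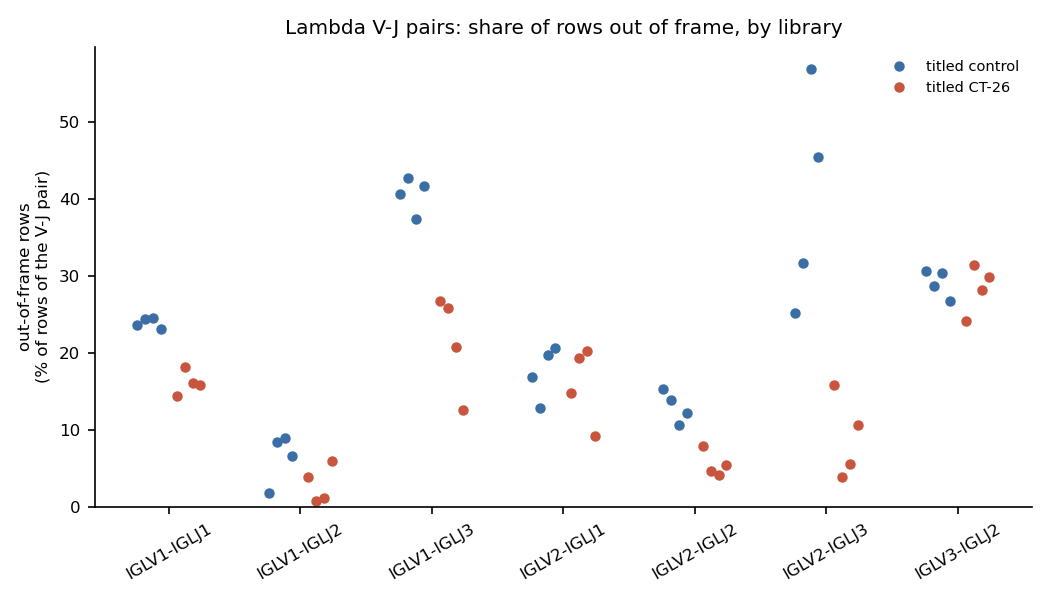
Each point is 1 library, with titled control in blue and titled CT-26 in red, and the y axis gives out-of-frame rows as percent of out-of-frame plus in-frame rows without stop codon of the lambda V-J pair. IGLV1-IGLJ1, IGLV1-IGLJ3, IGLV2-IGLJ2 and IGLV2-IGLJ3 lie lower in the titled CT-26 set without overlap, and IGLV3-IGLJ2 lies between 24.1% and 31.4% in both sets.

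Heavy-chain rows were split by constant region. Rows called IgD, the class that naive B cells carry beside IgM, had an out-of-frame share of 4.16%, 3.904%, 5.53% and 3.80% in titled control libraries 1 to 4 and 2.46%, 2.07%, 1.71% and 0.986% in titled CT-26 libraries 1 to 4. IgD rows themselves numbered 8139 to 9792 in the titled control libraries and 507 to 628 in the titled CT-26 libraries, where 5 to 14 of them were out of frame. IgM rows had 1.89%, 1.83%, 2.23% and 1.94% against 1.12%, 0.894%, 0.989% and 0.940%. IgA had 1.45% ± 0.212 (SD, n = 4) and 0.929% ± 0.121, and IgG2A/C 0.963% ± 0.272 and 0.382% ± 0.160. In these 4 classes the sets did not overlap, with an exact permutation p of 0.0286 and an adjusted p of 0.05, so that 0 of 7 classes (0%) were under the threshold and 4 were at an unadjusted p under 0.05. Over rows of at least 2 reads 3 classes had enough out-of-frame rows to be tested, and all 3 passed. IgG1, IgG2B and IgG3 overlapped between the sets.

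Of 9171 distinct out-of-frame IGH rearrangements, 71 were in at least 2 libraries (0.774%) and 0 in all 8. Of 14800 in IGK, 2085 were in at least 2 libraries (14.1%) and 17 in all 8, and of 8966 in IGL, 1940 (21.6%) and 141. The 141 held 77.9% of out-of-frame IGL reads, and the 17 held 5.25% of out-of-frame IGK reads. Of in-frame rearrangements, 4.76% in IGH, 19.2% in IGK and 21.1% in IGL were in at least 2 libraries. Those in all 8 libraries held 92.1% of IGL, 77.1% of IGK and 1.62% of IGH reads of that class. In IGH, pairs of titled control libraries had 14 to 22 out-of-frame rearrangements in common, pairs of titled CT-26 libraries 0 to 2 and pairs across the sets 0 to 1.

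RNA libraries of the same titles, 4 per set, were used for genes that bear on the fate of out-of-frame transcripts. They held 735298 to 1970950 reads counted in genes. Of 6408 genes tested with edgeR, 2740 differed between the sets (42.8%), 1359 higher (21.2%) and 1381 lower (21.6%) in the titled CT-26 set. Scaled by library totals alone, 1936 were higher and 725 lower, and the median log2 difference over all genes moved from -0.02 to 0.35, so the differences below are relative to the TMM scale.

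Nonsense-mediated decay is the surveillance that degrades transcripts with an early stop codon. Of its 20 listed factors 14 were tested, 3 were higher and 1 was lower in the titled CT-26 set, with a median log2 difference of 0.01 (-0.02 over all genes). Upf3b, which links the decay factors to exon junctions, had 66.2, 75.4, 67.7 and 46.9 CPM (counts scaled to library size with TMM factors) in titled control libraries 1 to 4 and 142, 129, 214 and 144 CPM in titled CT-26 libraries 1 to 4 (log2 1.30 ± 0.225 SE, edgeR adjusted p = 2.76e-05). Smg6, the endonuclease of the pathway, rose from 6.602 ± 4.88 to 17.8 ± 3.05 CPM (log2 1.297, edgeR adjusted p = 0.01), a call lost with the sequencing lane as a factor (1.26, adjusted p = 0.0674). Smg5 rose from 5.43 ± 2.20 to 12.3 ± 2.42 CPM (log2 1.10, edgeR adjusted p = 0.0329), a call lost without titled control library 1, 2 or 3 or titled CT-26 library 2 or 4 (0.90 to 1.18, adjusted p = 0.0514 to 0.106), and with DESeq2 (adjusted p = 0.0514). Smg1, the kinase that phosphorylates Upf1, fell from 84.6 ± 11.4 to 41.0 ± 9.79 CPM (log2 -1.05, edgeR adjusted p = 0.000524), and did not pass when scaled by library totals (-0.69, adjusted p = 0.0518).

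Rag1 and Rag2, the recombinase subunits, had 0 counts in all 8 RNA libraries. Of 15 genes of V(D)J recombination and end joining 5 were tested, and 2 were higher and 2 lower in the titled CT-26 set. The others had too few counts to be tested, so the 2 and 2 do not describe the list. Among them Prkdc had mean CPM of 8.83 and 0.973, Atm 12.2 and 2.92, and Xrcc6 11.2 and 4.35 (titled control first). Xrcc4, Lig4 and Nhej1 also had lower means, Poll had 0.750 and 0.728, and Dntt, with 0 to 1 counts per library, was higher. Hmgb1 and Hmgb2, DNA-bending cofactors of the recombinase that all dividing cells also use, were higher (log2 1.25 and 1.98, edgeR adjusted p = 2.95e-05 and 3.05e-08). Xrcc5, the Ku80 subunit, and Polm, a polymerase of end joining, were lower (log2 -1.42 and -1.41, edgeR adjusted p = 0.00686 and 0.00127), and Xrcc5 did not pass by library totals (-1.05, adjusted p = 0.0748) or with lane as a factor (-1.37, adjusted p = 0.0578). Of 14 listed genes of precursor B cells 7 were tested and 4 were lower, Vpreb3 (log2 -2.14), Il7r (-1.78), Lef1 (-1.37) and Ebf1 (-0.80), none higher. The Ebf1 call was lost by library totals (-0.45, edgeR adjusted p = 0.213) and with lane as a factor (-0.66, adjusted p = 0.0768). Il7r and Lef1 are also T cell genes, and Vpreb1, Vpreb2 and Igll1, which mark precursor B cells, had 0 to 3 counts per library. Of 7 hypermutation genes 2 were tested, and Polh, a translesion polymerase, was higher (log2 1.17, edgeR adjusted p = 0.00791).

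B cell and T cell markers were lower in the titled CT-26 RNA libraries. Of 12 B cell markers 11 were lower, with a summed level of 2225 to 3452 CPM in the titled control and 440.5 to 855 CPM in the titled CT-26 libraries, none of them at 0. Of 10 T cell markers 10 were lower, of 5 red pulp macrophage markers 4, and of 10 plasma cell markers 1 of 3 tested. In bulk RNA, fewer cells of a type and less RNA per cell cannot be told apart, and the part of these differences in the out-of-frame shares was not tested.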

How the data were processed

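Per the labels' protocols, total RNA was taken with a Takara MiniBEST kit. The deposited BCR and TCR tables give a read count per assembled CDR3 and a fraction, which was not used. Their program and build are not given in the sources used here. For the RNA libraries, the deposited counts were made by the authors with featureCounts 2.0.1 on GENCODE M29 (GRCm39) without strand, per the file headers, and the submitters' processing notes name Trimmomatic 0.39 and STAR 2.7.10a. Coordinates are those of the RNA tables. Gene types and germline ends are from GENCODE M21 (GRCm38).

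The denominator of a share was all rows (or reads) of the chain in frame, with stop codon or out of frame. The out-of-frame share of a single V segment or lambda V-J pair left out rows with a stop codon. Sets were compared by exact permutation over 70 assignments, classes within library by exact sign flips (256), two-sided, and V segments by edgeR 4.0.16 (quasi-likelihood on row numbers, no TMM, mean of at least 10 rows). Library was a block for V segments between classes and for the interaction, and V tests between sets had no block. Rows are not independent cells. RNA was tested with edgeR (filterByExpr, TMM, robust). P was adjusted by Benjamini and Hochberg at 0.05. V segments named are the 4 of smallest p per chain and contrast, with all J segments tested. Listed sequences are those in most libraries and those of most reads per set. The members and lists were chosen with earlier results of these data known. Scripts were tested on simulated data. Alternatives were rows of at least 2 reads, other denominators, thinning to equal reads, DESeq2 1.42.0, TMM, no filter, each library left out and a replicate block. The subsets of titled CT-26 libraries and of rearrangements listed in 1 library, and the fit without 1 IGK row, were chosen after seeing the data. Replicate numbers did not pair the libraries (r of same-numbered deviations -0.164 to 0.0423 for V usage).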

Additional observations from a re-analysis of the deposited data

Results flagged for a closer look

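Among 30 groups of 4 libraries checked for a library far from the others (3 chains, 2 sets and 5 measures), 2 had one, and chance gives about 1 in 20. Titled CT-26 library 1 had 0.442% of IGH reads out of frame against 0.383% to 0.391% in the other 3 of its set, and titled control library 3 had 5.94% of IGK rows out of frame against 5.10% to 5.23%.

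The contrast of out-of-frame with in-frame rows differed between the title sets in 4 further measures by the exact permutation test (adjusted p = 0.0429 each). The log2 ratio of reads per row differed by -0.42 in IGH (titled CT-26 minus titled control, -1.30 ± 0.0336 against -0.88 ± 0.0653) and by 0.66 in IGK (-1.01 ± 0.425 against -1.67 ± 0.0813). Without the IGKV4-91 row of 2989 reads in titled CT-26 library 3, an alternative chosen after seeing the data, the IGK difference was 0.45 (-1.22 ± 0.0694 against -1.67 ± 0.0813, exact adjusted p = 0.0429). Over all rows, mean reads per IGH row were higher in the titled CT-26 set in each class. They were 1.57 against 1.43 out of frame and 3.88 against 2.62 in frame. In IGK they were 4.19 against 2.85 out of frame and 8.15 against 9.08 in frame. The signed difference in mean CDR3 length, out of frame minus in frame, was higher in the titled CT-26 set by 1.06 bases in IGH (2.10 ± 0.412 against 1.05 ± 0.511) and by 0.309 bases in IGL (-0.05 ± 0.154 against -0.36 ± 0.0878). In-frame IGL rows were shorter in that set (33.1 against 33.3 bases, exact adjusted p = 0.0429). The lengths of out-of-frame IGL rows did not pass between the sets (exact adjusted p = 0.286). In V usage the contrast of the classes differed between the sets for 1 heavy-chain segment, 4 kappa segments and 2 lambda segments by edgeR, named with their values in the report.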

How the results depend on the processing

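The shares of rows out of frame passed the exact test in the same direction in all 3 chains with rows of at least 2 reads, without rows 1 base from an in-frame row, without stop-codon rows in the denominator, with distinct rearrangements, after thinning and over rearrangements listed in 1 library. The last of these is not neutral in IGH, since it leaves out mostly in-frame rearrangements of the titled control set. In IGK too, in-frame rearrangements were shared more than out-of-frame ones between libraries of a set. Without any one library they were -1.27 to -1.08 points in IGH, -2.88 to -2.26 in IGK and -9.53 to -8.78 in IGL, and the shares of reads -0.859 to -0.722 in IGH and -5.30 to -4.73 in IGL. With 3 against 4 libraries no exact p under 0.0571 is possible, so these ranges carry no call. Replicate numbers are shared by the sets but do not pair the libraries, and with the replicate block the differences were the same (rows -1.20 in IGH, -2.49 in IGK and -9.22 in IGL, reads -0.814 in IGH and -5.07 in IGL) at an adjusted p of 0.15, since 4 pairs allow no p under 0.125. The IGK difference in reads was 0.0718 without rows 1 base from an in-frame row and -0.533 without the row of most reads. In the titled CT-26 libraries only, where no exact call is possible, the log2 reads per row were -1.30, -1.01 and -1.11, the length differences 2.10, -0.442 and -0.0525 bases (IGH, IGK and IGL), 0 J segments passed, and 3 IGH and 23 IGK V segments differed between classes. With rows of at least 2 reads the IGH length difference was 1.26 (adjusted p = 0.0547), and 3 of the 3 constant regions tested passed. The IGL length difference was -0.255 to -0.171 without any one library, and 3 to 6 J segments passed.

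For V segments, the IGH count between classes was 18 with rows of at least 2 reads, 10 with no library block, 45 with no filter on rows and 18 to 30 without any one library. Between the sets, IGH gave 1 with rows of at least 2 reads, 2 with no filter and 3 to 8 without any one library, IGK gave 6 without rows 1 base from an in-frame row, and IGL gave 2 without those rows, 2 with DESeq2 and 0 to 3 without any one library. For the difference in contrast, IGH gave 0 with rows of at least 2 reads, 2 with TMM, 0 with DESeq2 and 1 to 3 without any one library, IGK gave 1 with TMM and 0 to 6, and IGL gave 1 with rows of at least 2 reads, 1 with TMM and 1 to 3. The signs that turned were those of uncalled values: between sets, IGLV1 with rows of at least 2 reads (-0.0101) and IGLV2 with those rows (0.0694) and with DESeq2 (0.0449), and in the difference of contrast IGHV5-6-5 with those rows (-0.38). The cause of these changes was not tested. DESeq2 could not be fitted to the 3 IGL segments for the contrasts within library. Shares rest on 648 to 1838 out-of-frame IGH rows per library, most of a single read, and V segments with few rows limit what could be called. Counting error of PCR reads without molecular identifiers is not the error of molecules.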
